A study of Homo sapiens with 8 samples.

Results

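The complement genes described here, 8 in all, were followed in NB4, a cell line from human acute promyelocytic leukaemia, after knockdown of the cell cycle kinase CDK2. They are the central component C3, the alternative pathway factors CFB, CFP and CFD, the membrane regulators CD46, CD55 and CD59, and the plasma inhibitor SERPING1. The genes were selected with earlier results of these arrays known, and each is represented by a probe set chosen by measured values too: its probe set is the brightest on average, over all 8 arrays, of those annotated to exactly 1 gene. All 8 had such a probe set, of 18132 genes that did. The values are log2 signals as deposited by the authors. Tests covered the 12845 genes whose mean lay above 5.83 log2, the 40th percentile of all probe sets, and 7 of the 8 complement genes were among them. SERPING1, with a mean of 4.43 log2, lay outside this limit, and CFB, with 6.68, was the nearest one inside it.

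All cells carried a lentiviral hairpin, delivered at a multiplicity of infection of 10. They received 1 of 3 short hairpins against CDK2, called shCDK2 #1, #3 and #10, or a scrambled hairpin, called scramble, and RNA was taken at day 2, labelled as an early differentiation stage, or at day 5, labelled as a late one. One array was made per construct and day, from 6 micrograms of total RNA. The groups were therefore 3 hairpin arrays at day 2, 3 hairpin arrays at day 5, and 1 scramble array at each day. In the pooled comparisons the 3 hairpins served as repeats and the lone scramble array was assumed to vary as they do, while in comparisons of single constructs the 2 days served as repeats. The labels do not say that hairpins or days came from separate cultures, so the spread behind each p-value is that between these samples and may be technical.

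CDK2 itself did not follow every label. At day 2 its brightest probe set stood at 39.9% of the scramble level in #1 and 34.0% in #10, but at 95% in the array labelled #3. At day 5 the levels were 81.1% in #1, 72.3% in #3 and 92.9% in #10 of an array labelled scramble that was itself at 53.2% of the scramble array of day 2. The second probe set gave 39.5% for that last ratio, but the third gave 101%, and it also gave 79.7% in #1 and 71.7% in #10 at day 2. The doubt about the array labelled scramble at day 5 thus rests on 2 of 3 probe sets. For the array labelled #3 at day 2, the second probe set gave 80.5% of scramble and the third gave 108%. The second gave 28.1% in #1 and 26.6% in #10 at day 2. Both arrays are therefore named below by their labels. Fits without either array are given for part of the results, where stated, and no fit left out both. All differences from scramble at day 5 use the array labelled scramble. Markers of promyelocytes, the cell type NB4 is derived from, had 7 of 8 genes with a probe set of 1 gene, and all 7 were above the filter level in all 8 arrays. MPO, the granule peroxidase, lay between 13.37 and 14.40 log2, while ELANE, neutrophil elastase, lay between 5.83 and 6.35, close to the filter level. The mean of this list lay between 10.05 and 10.67 in all arrays. Single genes varied more, with AZU1 between 8.39 and 10.50, CTSG between 7.97 and 9.74 and PRTN3 between 9.76 and 11.18.

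Complement is a cascade of plasma proteins that marks and lyses targets. Its classical, lectin and alternative pathways converge on convertases that split C3, and the alternative pathway also amplifies the C3 already deposited. Factor B (CFB) is the convertase's protease once factor D (CFD) has cut it, and properdin (CFP) stabilises the assembled enzyme. Host cells carry regulators that stop this on their own surface. CD46 is a cofactor for the protease that inactivates deposited C3, CD55 speeds the decay of convertases, CD59 blocks the membrane attack complex, and SERPING1 encodes the C1 inhibitor. The liver makes most plasma complement, but myeloid cells also make C3, properdin and factor D, and they carry receptors for the fragments.

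C3 was high in 2 arrays and low in the other 6. At day 5 it stood at 7.48 log2 in #1, 10.18 in #3 and 11.44 in #10, against 7.49 in the array labelled scramble. On day 2 it stood at 6.26 in #1, 6.82 in the array labelled #3 and 6.37 in #10, against 6.60 in scramble. The hairpin values therefore lay on both sides of scramble at both days. The difference from the scramble array of day 5 was -0.01 log2 in #1, 2.69 in #3 (6.45-fold) and 3.95 in #10 (15.5-fold), while at day 2 the 3 differences lay between -0.33 and 0.23.

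**Figure D1:**
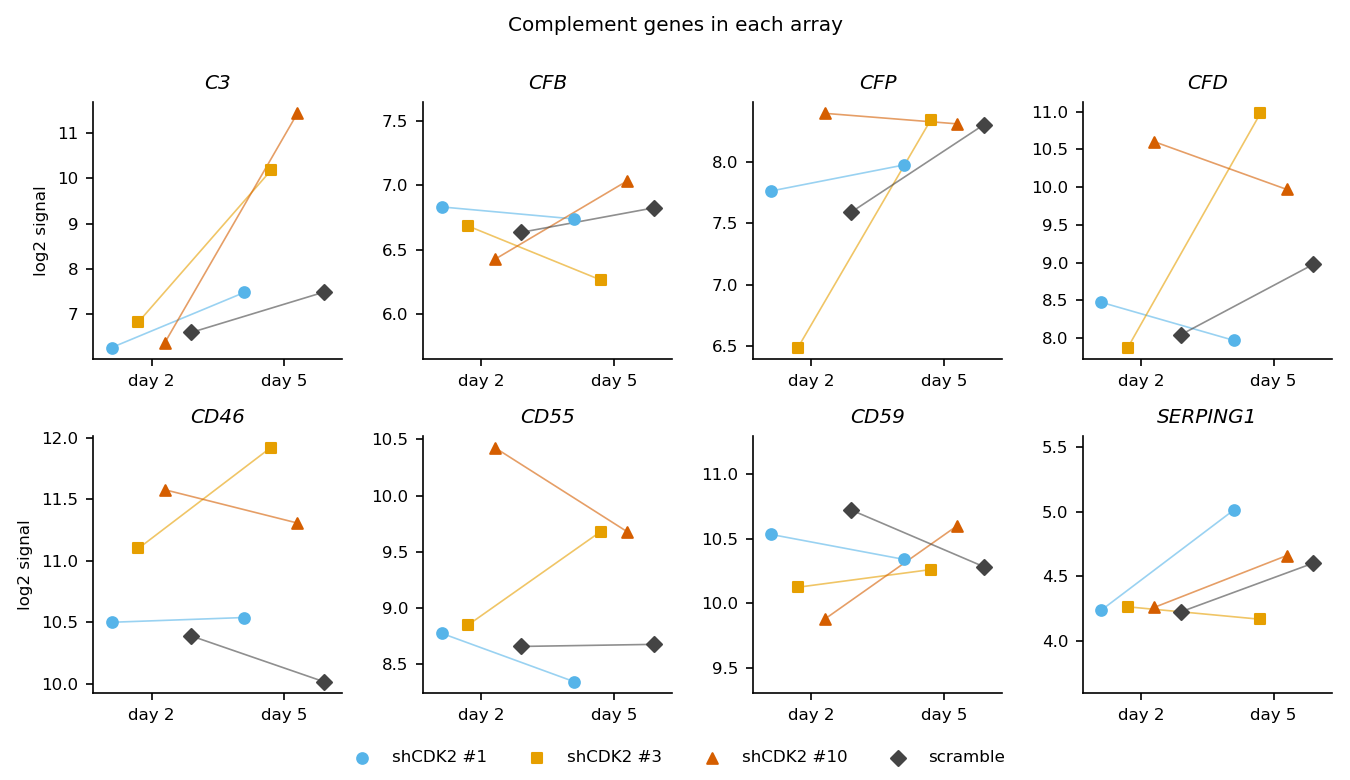
Log2 signal (vertical axis, a separate scale for each gene) of the 8 complement genes at day 2 and day 5 (horizontal axis), each point 1 array and each line 1 construct. C3 stands at 10.18 log2 in #3 and 11.44 in #10 at day 5 and between 6.26 and 7.49 in the other 6 arrays, while SERPING1 stays between 4.17 and 5.01.

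C3 was higher at day 5 than at day 2 with every construct, by 1.22 log2 in #1, 3.35 in #3 and 5.07 in #10, against 0.89 in scramble. The hairpin arrays averaged 9.70 ± 2.02 log2 at day 5 and 6.48 ± 0.30 at day 2 (SD, n = 3 each). All 3 hairpin arrays of day 5 lay above all 3 of day 2, and C3 was the 1 member for which the days did not overlap. Among all tested genes 5.89% had days that did not overlap in either direction. The fitted day difference in hairpin arrays was 3.21 log2 (SE 0.89, 95% interval 1.11 to 5.31), with an adjusted p of 1.00 in limma, so it did not pass. It was 3.38 log2 (SE 1.06, adjusted p = 1.00) when the array labelled #3 at day 2 was left out. Against the array labelled scramble, the 3 hairpins at day 5 differed by 2.21 log2 (SE 1.26, 95% interval -0.76 to 5.18, adjusted p = 0.913), again without passing. The spread among the hairpins at day 5, with #1 at the scramble level, was about as large as that difference.

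Setting each construct's 2 days together, the difference from scramble was 1.86 log2 for #10 (SE 0.89, adjusted p = 0.295) and 1.46 for #3 (SE 0.89, adjusted p = 0.642). It was -0.17 for #1 (SE 0.89, adjusted p = 1.00), and the difference between #10 and #1 was 2.03 log2 (SE 0.89, adjusted p = 0.324). None of these passed. The difference of #10 from scramble was 0.70 log2 (SE 1.07) if the array labelled scramble at day 5 was left out. That of #3 was then 0.30 and that of #1 was -1.33, so the size of all 3 depends on that array. Scramble then has only its day 2 array, and the fit gives it the mean day difference of the hairpins, 3.21 log2. The difference measured in scramble was 0.89, so these 3 values rest on that assumption. The same assumption enters every comparison with scramble below that leaves this array out. Leaving out the array labelled #3 at day 2 gave 1.86 for #10 (SE 0.99, adjusted p = 0.288), and #3 then differed by 1.94 on 1 array. In the order of the arrays, #10 at day 5 stood above #3 at day 5 by 1.26 log2 and #3 stood above the next array by 2.69, both more than the fitted spread of 0.89 log2 per array. The other 6 arrays had no neighbours farther apart than that spread. Here and below, the spread is the SD of an array that is left after construct and day are fitted. The gaps were found by ordering the same values, so setting them beside it only describes the values and is no test.

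Markers of monocytes and macrophages were highest in the arrays in which C3 was highest. The mean of the 7 genes of this list was 8.03 log2 in #10 and 6.73 in #3 at day 5, against 5.35 to 5.75 in the other 6 arrays. Their summed linear signal was 4509 in #10 and 1340 in #3 at day 5, and between 424 and 686 elsewhere. CD14, the lipopolysaccharide co-receptor of monocytes, stood at 10.65 log2 in #10 and 8.43 in #3 at day 5, against 5.15 to 5.76 elsewhere. CD163, the haemoglobin scavenger receptor of macrophages, stood at 10.27 and 7.92 in the same arrays, against 4.57 to 4.88 elsewhere. Both genes thus had the C3 pattern, whereas MRC1, the mannose receptor, and VCAN, versican, were below the filter level in all 8 arrays. The part of this marker pattern in the C3 values was not tested, and in bulk RNA more cells of a type and more RNA per cell cannot be told apart.

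Hepatocyte markers were checked because the liver is the main source of plasma C3. ALB, albumin, lay between 4.07 and 4.85 log2 and FGB, a fibrinogen chain, between 4.50 and 5.37, both below the filter level in every array. APOA1, TTR and AHSG were above that level in every array. They lay between 6.85 and 7.53, between 6.03 and 6.55 and between 6.72 and 6.92 log2. SERPINA1, the antitrypsin gene that monocytes also express, stood at 12.64 log2 in #10 and 10.85 in #3 at day 5 and at 10.62 in #10 at day 2, against 6.07 to 6.66 in the other 5 arrays. The summed linear signal of the 6 listed genes lay at 6789, 2194 and 1959 in these 3 arrays and between 479 and 547 in the other 5. The part of this gene in the C3 values was not tested.

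The alternative pathway factors did not share the C3 pattern. CFD, the serine protease that cuts factor B, was high in 3 arrays. The day 5 values were 7.97 log2 in #1, 10.98 in #3 and 9.97 in #10, against 8.98 in the array labelled scramble. The day 2 values were 8.47 in #1, 7.88 in the array labelled #3 and 10.60 in #10, against 8.05 in scramble. The 3 high arrays were #10 at both days and #3 at day 5, and hairpins lay on both sides of scramble at each day. The differences from scramble were 2.55 log2 in #10 at day 2 (5.87-fold), 2.00 in #3 at day 5 (3.99-fold), 0.99 in #10 at day 5 and -1.01 in #1 at day 5. In #10 CFD was lower at day 5 than at day 2 by 0.63 log2, where C3 was higher by 5.07.

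Neither pooled comparison passed for CFD, with 0.94 log2 at day 2 (SE 1.29, adjusted p = 1.00) and 0.66 at day 5 (SE 1.29, adjusted p = 0.924). Over both days #10 differed from scramble by 1.77 log2 (SE 0.79, adjusted p = 0.264) and from #1 by 2.06 log2 (SE 0.79, adjusted p = 0.264). Without the array labelled #3 at day 2 the difference between #10 and #1 passed (2.06 log2, SE 0.39, adjusted p = 0.049), and the one from scramble did not (1.77 log2, SE 0.39, adjusted p = 0.055). Both estimates were unchanged and only their SE was smaller, as #3 with 1 array left adds nothing to the spread. With the day 5 scramble array left out neither passed, at adjusted p of 0.546 against scramble and 0.377 against #1. Among neighbours in the order of arrays, 1 gap exceeded the spread of 0.79 log2, that between #10 at day 5 and the array labelled scramble at day 5, which was 0.99.

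CFP, properdin, which neutrophils store and release, was nearly level at day 5. It stood there at 7.97 log2 in #1, 8.34 in #3 and 8.31 in #10, against 8.30 in the array labelled scramble. Its level at day 2 was 7.76 in #1, 6.49 in the array labelled #3 and 8.39 in #10, against 7.59 in scramble. The array labelled #3 at day 2 was the low one, 1.10 log2 below scramble, a gap larger than the spread of 0.41. The pooled differences were -0.04 log2 at day 2 (SE 0.63, 95% interval -1.53 to 1.44) and -0.09 at day 5 (SE 0.63, 95% interval -1.58 to 1.39). With the array labelled #3 at day 2 left out, the day 2 value was 0.49 log2 (SE 0.34) and the difference of #3 from scramble was 0.25, against -0.53 with it.

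CFB, the protease precursor, varied least among the 7 tested members and stayed between 6.26 and 7.03 log2. Its level at day 5 was 6.74 log2 in #1, 6.26 in #3 and 7.03 in #10, against 6.82 in the array labelled scramble. On day 2 it stood at 6.83 in #1, 6.68 in the array labelled #3 and 6.42 in #10, against 6.63 in scramble. No 2 neighbours in the order of arrays were farther apart than the spread of 0.26 log2, and the lowest array was #3 at day 5, where C3 was high. The pooled differences were 0.01 log2 at day 2 (SE 0.32, 95% interval -0.75 to 0.77) and -0.15 at day 5 (SE 0.32, 95% interval -0.91 to 0.61). Of its 4 probe sets 2 had a mean above the filter level, and in #10 at day 5 these 2 differed from scramble by 0.21 and -0.37 log2.

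The promoters of CFB and CFD, 250 bases up to the transcript start from RefSeq on GRCh38.p14, are shown because these factors of 1 enzyme had different patterns. Both strands were searched for GAAANNGAA, the core of the interferon response element, for TTCNNNGAA, the STAT element, and for the NF-kB consensus. Capitals mark the matches.
CFB, chr6:31945845-31946094, plus strand: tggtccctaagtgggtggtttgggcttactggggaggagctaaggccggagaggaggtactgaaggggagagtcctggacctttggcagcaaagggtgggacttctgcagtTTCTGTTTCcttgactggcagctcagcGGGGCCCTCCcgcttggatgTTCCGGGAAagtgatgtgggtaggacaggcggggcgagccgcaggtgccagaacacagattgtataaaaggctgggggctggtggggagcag
CFD, chr19:859414-859663, plus strand: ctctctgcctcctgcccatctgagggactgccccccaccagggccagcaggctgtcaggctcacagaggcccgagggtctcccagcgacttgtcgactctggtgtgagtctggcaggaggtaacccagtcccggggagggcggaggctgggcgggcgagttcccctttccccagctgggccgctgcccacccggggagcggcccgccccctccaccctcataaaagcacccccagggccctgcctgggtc
The CFB promoter held all 3 motifs, GAAANNGAA on the opposite strand from 139 to 131 bases before the start, the NF-kB consensus from 112 to 103 bases before it and TTCNNNGAA from 92 to 84. The CFD promoter held none of these letters. Among 35116 promoters of the same length, 6.88% held GAAANNGAA, 6.57% held TTCNNNGAA and 9.96% held the NF-kB consensus. Of the other members, CFP has 2 listed starts, 1 of them with GAAANNGAA on the opposite strand, and CD59 has 4, of which 2 overlapping windows held the same TTCNNNGAA. RefSeq promoters were matched for 6 of the 8 members, all but C3 and SERPING1.

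By its brightest probe set, CD46 was the 1 member above scramble in all 6 hairpin arrays. The share of all tested genes above scramble in all 6 was not counted. At day 5 CD46 stood at 10.54 log2 in #1, 11.92 in #3 and 11.31 in #10, against 10.02 in the array labelled scramble. The day 2 values were 10.50 in #1, 11.10 in the array labelled #3 and 11.58 in #10, against 10.39 in scramble. All 3 hairpins were above scramble at each day, with differences of 0.52, 1.91 and 1.29 log2 at day 5 and 0.11, 0.71 and 1.19 at day 2 in #1, #3 and #10. CD46 was the 1 member with all hairpins on one side of scramble at day 5, which 46% of tested genes had. At day 2 CD46, CD55 and CD59 had this, as did 52.1% of tested genes, so the count of 3 members is not above the background.

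**Figure D2:**
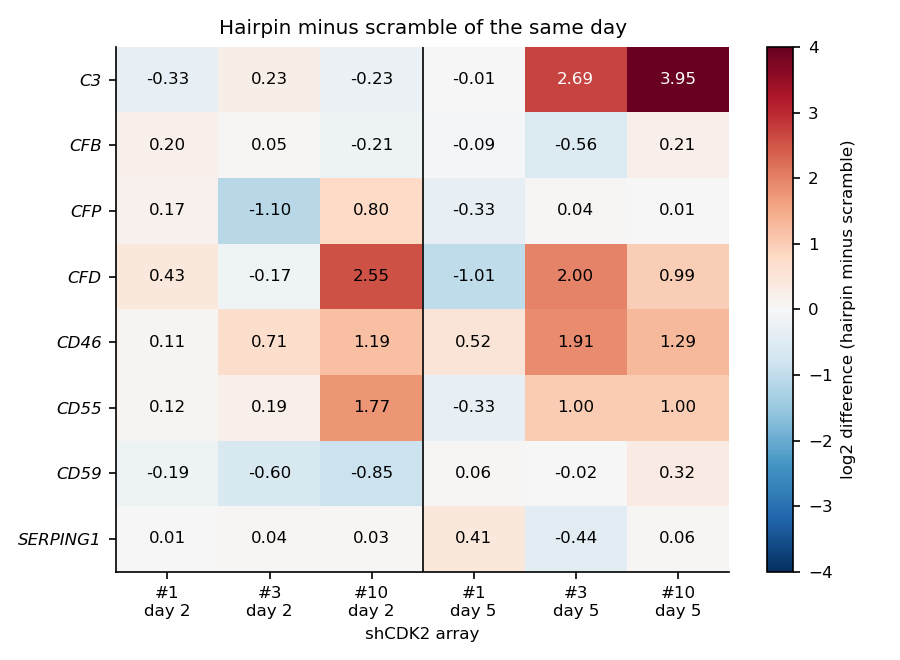
Difference between each hairpin array and the scramble array of the same day (colour and printed number, log2) for the 8 complement genes (rows) in the 6 hairpin arrays (columns). CD46 is positive in all 6 columns, whereas C3 reaches 2.69 in #3 and 3.95 in #10 at day 5 and lies between -0.33 and 0.23 in the other 4.

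The pooled CD46 differences did not pass, with 1.24 log2 at day 5 (SE 0.57, 95% interval -0.09 to 2.57, adjusted p = 0.913) and 0.67 at day 2 (SE 0.57, adjusted p = 1.00). Over both days CD46 differed from scramble by 1.24 log2 in #10 (SE 0.29, adjusted p = 0.077), by 1.31 in #3 (SE 0.29, adjusted p = 0.259) and by 0.32 in #1 (SE 0.29, adjusted p = 1.00). The difference between #10 and #1 was 0.92 log2 (SE 0.29, adjusted p = 0.195). These are the day means of 11.44 log2 in #10 and 11.51 in #3, against 10.20 in scramble. Leaving out the array labelled #3 at day 2 kept the #10 estimates unchanged and lowered their SE. With 1 array left, #3 adds nothing to the spread of this fit. Without that array, CD46 rose in #10 against scramble (1.24 log2, SE 0.16, adjusted p = 0.017) and against #1 (0.92 log2, SE 0.16, adjusted p = 0.040). It also rose in #3 (1.82 log2, SE 0.20, adjusted p = 0.034), a value that then rests on 1 array of #3, assumed to vary like the other constructs, which supply the whole SE. With the day 5 scramble array left out none of these was past the threshold, with an adjusted p of 0.328 for #10, 0.749 for #3 and 0.269 for #10 against #1.

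CD46 was measured by 12 probe sets, 11 of them with a mean above the filter level. All 11 were above scramble in 4 arrays, with medians of 0.61 log2 in the array labelled #3 at day 2, 1.17 in #10 at day 2, 1.34 in #3 at day 5 and 0.63 in #10 at day 5. In #1, 8 of 11 were above scramble at day 2 and 9 of 11 at day 5, with medians of 0.11 and 0.14. The second brightest was at -0.10 log2 from scramble in #1 at day 2, so it was not above scramble in every hairpin array. The brightest probe set gave the largest value at day 5, 1.91 log2 in #3 and 1.29 in #10. Averaging probe sets therefore gives a smaller day 5 difference than the brightest one.

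CD55, which is held in the membrane by a lipid anchor, stood apart in the same 3 arrays as CFD. The day 5 values were 8.35 log2 in #1, 9.68 in #3 and 9.68 in #10, against 8.68 in the array labelled scramble. Its level at day 2 was 8.78 in #1, 8.85 in the array labelled #3 and 10.43 in #10, against 8.66 in scramble. The 3 high arrays did not overlap the other 5, with a gap of 0.83 log2 between them that exceeds the spread of 0.35. The differences from scramble were 1.77 log2 in #10 at day 2 (3.41-fold) and 1.00 in both #3 and #10 at day 5 (2.00-fold), and #1 was 0.33 log2 below scramble at day 5.

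The pooled CD55 differences were 0.69 log2 at day 2 (SE 0.76, adjusted p = 1.00) and 0.56 at day 5 (SE 0.76, adjusted p = 0.913). Over both days CD55 differed by 1.38 log2 between #10 and scramble (SE 0.35, adjusted p = 0.086) and by 1.49 between #10 and #1 (SE 0.35, adjusted p = 0.112). Without the array labelled #3 at day 2 it rose in #10 in both comparisons, with an adjusted p of 0.025 against scramble and 0.028 against #1 (SE 0.21 each). In #3, on 1 array, it was then 1.21 log2 above scramble (SE 0.27, adjusted p = 0.086), which did not pass. With the day 5 scramble array left out neither #10 comparison was past the threshold, at adjusted p of 0.282 and 0.227. Of the 7 probe sets, 6 had a mean above the filter level, and all 6 were above scramble in #10 at day 2 (median 1.67 log2), in #3 at day 5 (1.11) and in #10 at day 5 (1.04). The brightest one carries the array maker's mark for probes that can also match other sequences.

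**Figure D3:**
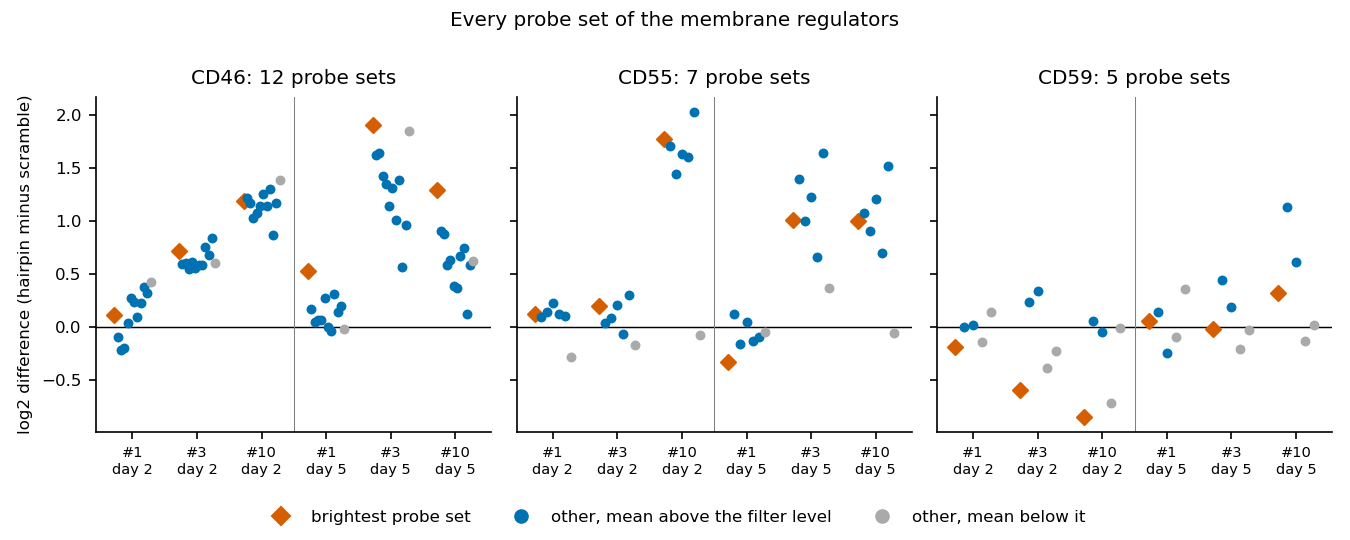
Difference between hairpin and same-day scramble (vertical axis, log2) for every probe set of CD46, CD55 and CD59 (panels) in the 6 hairpin arrays (horizontal axis), with the brightest probe set as a diamond and those below the filter level in grey. All 11 CD46 probe sets above the filter level are positive in #10 and in #3, and the brightest CD59 probe set is the lowest of the 3 above that level in #10 at day 2 (-0.85).

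CD59 differed from the other membrane regulators. Its level at day 5 was 10.34 log2 in #1, 10.26 in #3 and 10.60 in #10, against 10.28 in the array labelled scramble. On day 2 it stood at 10.53 in #1, 10.12 in the array labelled #3 and 9.87 in #10, against 10.72 in scramble. All 3 hairpins were below scramble at day 2 and straddled it at day 5. The pooled differences were -0.55 log2 at day 2 (SE 0.29, 95% interval -1.23 to 0.14, adjusted p = 1.00) and 0.12 at day 5 (SE 0.29, adjusted p = 0.932), and the difference between the days' values was 0.66 (SE 0.41, adjusted p = 1.00). Its probe sets did not share the day 2 direction. A dim one below the filter level was also under scramble in all 3 hairpins, with differences of -0.14 log2 in #1, -0.39 in the array labelled #3 and -0.73 in #10. The second brightest stood at 9.79 in #1, 10.03 in the array labelled #3 and 9.85 in #10 at day 2, against 9.80 in scramble, and in #10 at day 5 it was 1.13 log2 above scramble, where the brightest was 0.32 above. No 2 neighbours in the order of arrays were farther apart than the spread of 0.28 log2.

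The promoters of CD55 and CD46 are shown because these genes lie near each other on chromosome 1 and were both high in #10 and in #3 at day 5. They are again the 250 bases up to the start in RefSeq on GRCh38.p14, and for CD46 up to the first of 2 listed starts.
CD55, chr1:207321428-207321677, plus strand: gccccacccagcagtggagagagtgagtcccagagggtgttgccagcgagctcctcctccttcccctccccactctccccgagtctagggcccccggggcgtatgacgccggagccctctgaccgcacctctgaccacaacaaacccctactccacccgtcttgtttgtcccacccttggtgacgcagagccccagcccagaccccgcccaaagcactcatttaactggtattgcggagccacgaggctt
CD46, chr1:207751788-207752037, plus strand: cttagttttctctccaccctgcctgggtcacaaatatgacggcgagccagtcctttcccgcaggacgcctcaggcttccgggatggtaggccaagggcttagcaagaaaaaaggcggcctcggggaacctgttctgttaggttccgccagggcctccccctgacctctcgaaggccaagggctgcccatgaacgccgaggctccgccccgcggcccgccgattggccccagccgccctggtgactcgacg
No capitals appear because none of the 3 motifs was found in either window. The CD55 window overlaps the uncharacterized locus LOC107985251. RefSeq places the complement genes of this stretch in the order C4BPB, C4BPA, CD55, CR2, CR1, CR1L and CD46. Of those between CD55 and CD46, CR1, the receptor for fragments of C3 and C4 on myeloid and red cells, stood at 10.07 log2 in #10 at day 2, 10.03 in #3 and 8.88 in #10 at day 5. It lay between 5.77 and 7.57 in the other 5 arrays. CR2 lay between 3.96 and 4.30 log2 in all 8 arrays and the CR1-like gene CR1L between 5.69 and 6.18, so the neighbours did not all share the pattern. CR1 and CR1L have similar sequences, and their probe sets may share signal.

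**Figure D4:**
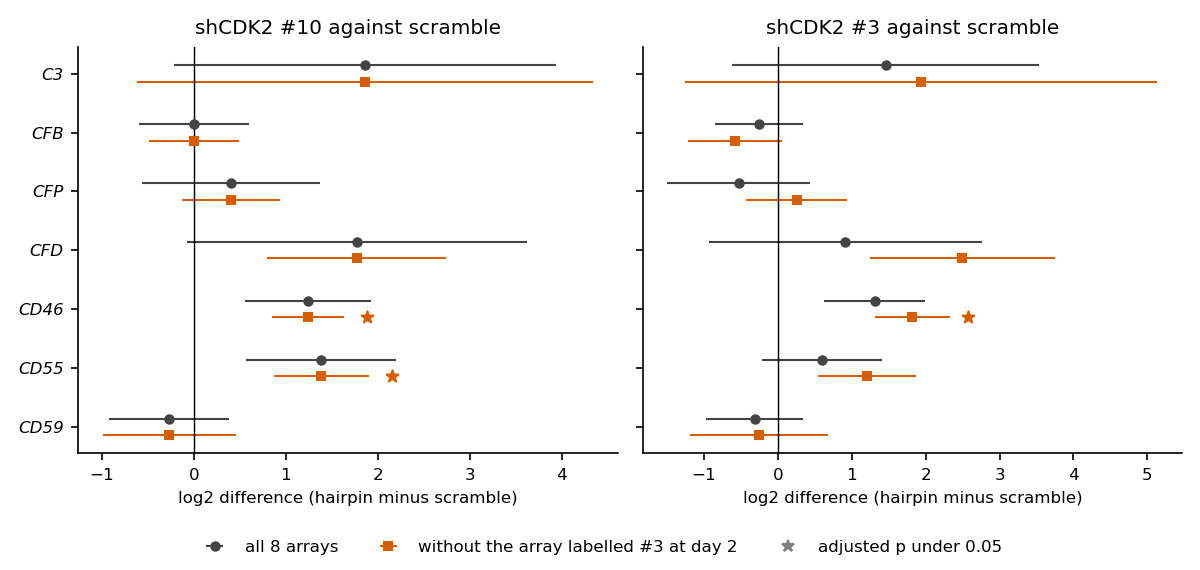
Fitted difference from scramble over both days (horizontal axis, log2, with 95% intervals) for the 7 tested genes (rows) in #10 and in #3 (panels), with all 8 arrays (dots) and without the array labelled #3 at day 2 (squares), where stars mark an adjusted p under 0.05. With all arrays no gene has a star, and without that array CD46 has one in both panels and CD55 has one in #10.

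SERPING1, a serpin that blocks the proteases that start the classical and lectin pathways, was below the filter level in all 8 arrays. It stood at 5.01 log2 in #1, 4.17 in #3 and 4.66 in #10 at day 5, against 4.60 in the array labelled scramble. The day 2 values were 4.24 in #1, 4.26 in the array labelled #3 and 4.26 in #10, against 4.22 in scramble. The day 2 values thus lay within 0.04 log2 of scramble, and those of day 5 lay on both sides of it. Its second probe set was also below the filter level, so no test was made and no difference was detectable here.

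Across the design, none of the 7 tested members was called by limma in any of 8 comparisons with all arrays. At an unadjusted p under 0.05 there were C3 for the days, CD46 in #3, CD46 and CD55 in #10, and CFD, CD46 and CD55 between #10 and #1, and no member in the other 4 comparisons. For the 3 hairpins together at day 2 and at day 5, for the difference between those values, for day 5 against day 2 in hairpin arrays and for #1 against scramble, limma called 0% of all tested genes. The numbers of genes with an unadjusted p under 0.05 there were 442, 171, 164, 260 and 171 in that order. They were larger in the remaining comparisons, with 1216 of 12845 for #3 against scramble, 2599 for #10 against scramble and 2036 for #10 against #1. For #3 against scramble limma called 0.0311% of genes, for #10 against scramble 2.01% and for #10 against #1 0.327%. Without the array labelled #3 at day 2 these shares were 1.67%, 7.5% and 4.79%, and the members called were CD46 for #3, CD46 and CD55 for #10, and CFD, CD46 and CD55 for #10 against #1. Those 3 members were all higher in #10, with estimates equal to those with all arrays. Their calls in #10 came with a smaller fitted spread, to which #3 with 1 array left adds nothing. The median difference of the 7 members from scramble was 1.24 log2 in #10, 0.60 in #3 and -0.08 in #1, beside medians of -0.09, -0.07 and -0.02 over all tested genes. As the members were chosen with earlier results of these arrays known, these medians only describe them. These comparisons share the scramble arrays and are not independent of each other.

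By single arrays, the members at least 1 log2 away from the scramble array of their day were few in #1 and more in #10. At day 2 they were none in #1, where 0.817% of tested genes were that far apart, CFP in the array labelled #3 (1.92% of genes), and CFD, CD46 and CD55 in #10 (10.8% of genes). At day 5 they were CFD in #1 (0.888% of genes), C3, CFD, CD46 and CD55 in #3 (6.54% of genes), and C3, CD46 and CD55 in #10 (6.11% of genes). All of these were above scramble except CFP in the array labelled #3 at day 2 and CFD in #1 at day 5. C3 was absent from the list at day 2, where #10 had its largest CFD and CD55 differences.

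Other complement genes were taken from a list of 51, of which 45 had a probe set of 1 gene and 28 were tested. With all arrays limma called 0 of the 28 in any of the 8 comparisons, at a lowest adjusted p of 0.056, for C3AR1 in #10. At an unadjusted p under 0.05 there were 10 in #10, 10 between #10 and #1, 2 in #3 and 0 in the other 5 comparisons. Both counts of 10 include C5AR1, for which no test is given, as stated below. Among all 12845 tested genes the counts were 2599 in #10, 2036 between #10 and #1 and 1216 in #3. In #10 against scramble 16 of 28 were higher and 12 lower, with a median of 0.04 log2 beside -0.09 over all genes. Among those with the same sign in both arrays, the 3 with the largest higher values were C5AR1 with 4.42 log2, CR1 with 3.40 (SE 0.77, adjusted p = 0.073) and ITGAM with 3.17 (SE 0.85, adjusted p = 0.097). All 3 encode receptors for complement fragments or a chain of one. C5AR1 was under the filter level in 5 of 8 arrays, both scramble arrays among them, and entered the tests only through its 3 high arrays. Its differences here and below are therefore given as a description against a level below the filter, with no test. The 3 lower ones were C1QBP, which binds the globular heads of C1q and is mostly mitochondrial, with -0.90 log2 (SE 0.22, adjusted p = 0.079), C8G with -0.24 and COLEC11 with -0.24.

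Without the array labelled #3 at day 2, 7 of the 27 genes other than C5AR1 rose in #10 against scramble and none fell. They were the anaphylatoxin receptor C3AR1, the fragment receptor CR1, the integrin chains ITGAM, ITGAX and ITGB2 that form the complement receptors of phagocytes, the C-type lectin CD93 and the chaperone CLU, which binds the terminal complex. CR1 gave 3.40 log2 (SE 0.25, adjusted p = 0.0073), C3AR1 2.54 (SE 0.24, adjusted p = 0.011) and ITGB2 2.01 (SE 0.38, adjusted p = 0.038). The estimates were the same with all arrays, where the SE was 0.77 for CR1, 0.52 for C3AR1 and 0.63 for ITGB2. Against #1, 6 of these 7 rose, all but CLU. In #3 against scramble CR1 rose, on 1 array of #3 whose spread was taken from the other constructs. The share of all genes called in these comparisons was 7.5%, 4.79% and 1.67%. With the day 5 scramble array left out limma called no gene in any comparison that could still be fitted.

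The receptor for the fragment that C3 releases, C3AR1, was high where C3 was high and also where it was not. At day 5 it stood at 9.90 log2 in #1, 11.16 in #3 and 11.98 in #10, against 8.99 in the array labelled scramble. Its level at day 2 was 9.38 in #1, 8.38 in the array labelled #3 and 10.69 in #10, against 8.60 in scramble. C5AR1, the receptor for the C5 fragment, stood at 4.95 in #1, 8.97 in #3 and 8.98 in #10 at day 5, against 4.61 in the array labelled scramble, and at 4.53 in #1, 4.28 in the array labelled #3 and 8.60 in #10 at day 2, against 4.13 in scramble. Both were thus high in #10 at day 2, when C3 stood at 6.37. ITGAM, which marks maturing granulocytes and monocytes, stood at 11.16 in #10 at day 2, 10.51 in #3 and 10.20 in #10 at day 5 and between 6.88 and 8.14 elsewhere.

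**Figure D5:**
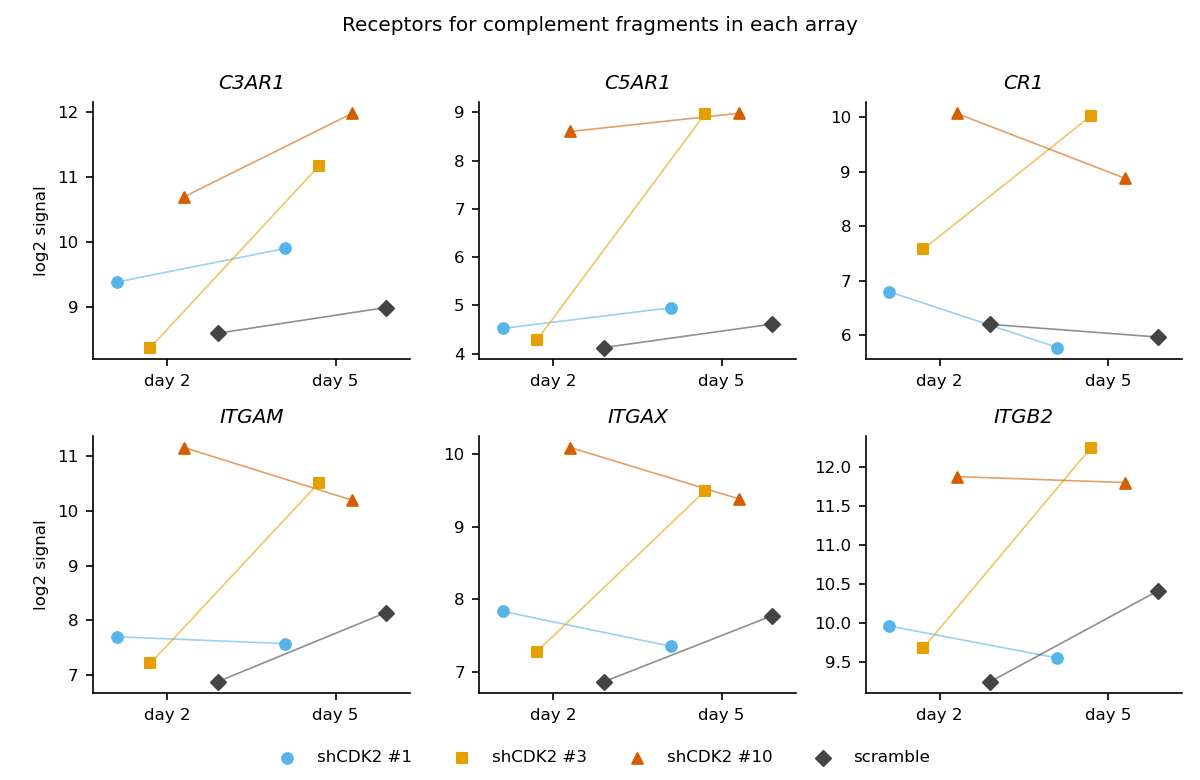
Log2 signal (vertical axis, a separate scale for each gene) of 6 genes for receptors of complement fragments at day 2 and day 5 (horizontal axis), each point 1 array and each line 1 construct. C5AR1 stands between 8.60 and 8.98 in #10 at both days and in #3 at day 5, and between 4.13 and 4.95 in the other 5 arrays.

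In the other comparisons the genes named are those with the largest differences among the 28 and the same sign in every array pair used. At day 5 the higher ones were C5AR1 with 3.02 log2, C3AR1 with 2.02 (SE 0.97) and CD93 with 0.74 (SE 0.54), and the lower ones were MASP2 with -0.38, COLEC11 with -0.37 and THBD with -0.22. At day 2 they were CR1 with 1.95 (SE 1.72), ITGAM with 1.81 (SE 1.66) and C5AR1 with 1.67, and C1QBP with -0.75 (SE 0.37) was lower. Apart from C5AR1, for which no test is given, none of these passed at either day. Between day 5 and day 2 in hairpin arrays they were C5AR1 with 1.83, C3AR1 with 1.53 and CD93 with 0.79, with C1R, CPN1 and CSMD1 lower by at most 0.24. In #3 against scramble they were CR1 with 2.72, C5AR1 with 2.25 and ITGAM with 1.35, and C1QBP, MASP1 and CLU were lower by at most 0.27. In #1 they were C3AR1 with 0.85, C5AR1 with 0.37 and CD93 with 0.33, and COLEC11, VTN and VSIG4 were lower by at most 0.13. Between #10 and #1 they were C5AR1 with 4.05, CR1 with 3.19 and ITGAM with 3.04, and the lower ones were C1QBP with -0.65, FCN2 with -0.30 and CSMD1 with -0.26. C5AR1 was below the filter level in #1 at day 2 (4.53 log2) and day 5 (4.95), so its difference there is a description only. For the change of the knockdown value between days they were C3AR1 with 1.13, VSIG4 with 0.57 and C1QBP with 0.55, and SUSD4 with -0.48, MASP2 with -0.46 and COLEC11 with -0.39.

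Most terminal components were below the filter level, and the initiators were mixed. C1QA, C1QB, C1R, MASP2, FCN1, FCN2 and FCN3 were above it in all 8 arrays. The initiators C1S (4.29 to 4.93 log2), MBL2 (4.48 to 4.98) and COLEC10 (4.30 to 4.79) were below it in all 8. MASP1 was below it in the array labelled #3 at day 2 (5.77) and in #3 at day 5 (5.69). C5, C6, C7, C8A, C8B and C9, which form or precede the membrane attack complex, were all below the filter level on average and were not tested, and C8G, the remaining C8 chain, lay between 5.74 and 6.12 log2. The C1q chain C1QC, which macrophages make, had a mean below the filter level but stood at 7.01 log2 in #10 at day 5, against 5.01 to 5.54 in the other 7 arrays. C1QA stood at 8.73 log2 in #10 at day 5 and between 7.11 and 8.04 in the other 7 arrays. VSIG4, the complement receptor of tissue macrophages, stood at 7.47 in #10 at day 5 and between 5.78 and 6.06 elsewhere. These 3 genes were thus highest in the array with the highest C3, while in #3 at day 5 C1QC (5.17 log2) and VSIG4 (5.92) lay within the range of the remaining arrays and C1QA (7.11) below it. C1QC, C1QA and VSIG4 were singled out after their values were seen.

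The genes whose pattern over the 8 arrays was most like that of C3 were CLIC4 (Pearson r = 0.978), BTBD9 (0.977), MB21D2 (0.973), AP1S1 (0.970) and ARFGAP1 (0.967). These are descriptions over 8 arrays in which 2 arrays carry most of the range. CLIC4, for example, stood at 9.46 log2 in #10 and 8.87 in #3 at day 5 and between 7.47 and 7.99 elsewhere. UBE3B, DICER1 and WASHC4 were most like CFD, SUN1, SESN1 and SPG11 were most like CD46, and WASHC3, MYO9A and PSME1 were most like CD55. DCSTAMP, TGFBI and HSD17B14 were most like CFB, UBE2Q1, UNC13D and OSTM1 were most like CFP, and ERI1, SNRNP27 and LTBR were most like CD59. None of these nearest genes was itself one of the 8.

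Markers of other cells were also compared with the members. The granulocyte list of 6 genes had means of 8.20 log2 in #10 at day 2, 7.97 in #3 and 7.98 in #10 at day 5, against 6.87 to 7.33 in the other 5 arrays, which is the array pattern of CFD and CD55. The list includes ITGAM, which is also among the complement genes, and MMP9, a granule protease that stood at 12.73, 13.77 and 13.75 log2 there and between 9.96 and 12.16 elsewhere. The other listed genes did not share this pattern. CXCR2, a chemokine receptor of neutrophils, stood at 7.28 log2 in #10 at day 2 and at 6.23 in #3 and 6.47 in #10 at day 5, against 6.58 to 7.13 elsewhere. CSF3R, the receptor for granulocyte colony-stimulating factor, stood at 9.40 in #10 at day 2 and at 8.71 and 8.60 in these day 5 arrays, against 8.28 to 8.65 elsewhere. LTF and FCGR3B, markers of late granulocytes, were below the filter level in all arrays. The lymphoid list was highest in #10, with means of 7.88 log2 at day 2 and 7.74 at day 5. The other 6 arrays had means of 7.19 to 7.47. Of this list, CD3D stood at 11.27 and 10.85 log2 in #10 at day 2 and day 5, against 8.81 to 9.54 elsewhere. NKG7 stood at 10.45 and 10.52, against 9.31 to 10.30. CD3E (6.14 and 6.00) and CD79A (7.32 and 7.25) lay within the range of the other 6 arrays. MS4A1, the B cell marker of the list, was below the filter level throughout. The erythroid and megakaryocyte list was highest in the 2 arrays with high C3, at 7.34 in #10 and 7.16 in #3 at day 5, against 6.61 to 6.85 elsewhere. ITGA2B, the platelet integrin chain, stood there at 8.59 and 8.79 log2, against 6.90 to 7.52 elsewhere. Of the 5 genes of this list 3 had a probe set of 1 gene, and HBB and PF4 did not share this pattern. In #3 at day 5 both were at their lowest, 6.29 and 6.39 log2. In #10 at day 5 HBB stood at 6.49, within the range of 6.46 to 6.73 elsewhere, and PF4 at 6.94, against 6.44 to 6.74. The fibroblast and epithelial list had means of 5.62 to 5.91. The part of these markers in the members' values was not tested.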

How the data were processed

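RNA of 8 NB4 samples was hybridised to Affymetrix arrays, 1 per construct and day. The authors deposited log2 signals per probe set, the log scale being inferred from the range of the values. Partek is named per the submitters' processing notes, while for background correction and normalization no method is given in the sources used here. Array medians lay between 6.30 and 6.43 log2, and precision is limited by how many arrays there are. Of 49395 probe sets, 44988 had 1 gene in the platform annotation, 1832 several and 2569 none.

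Each gene was represented by its brightest probe set. Tests took genes whose mean over the arrays exceeded the 40th percentile of probe sets, and were made with limma 3.58.1 in R 4.3.3, with p-values adjusted by Benjamini-Hochberg over 12845 genes and called under 0.05. The group fit compared hairpins with scramble within a day, these values between days, and days within hairpins. The construct fit compared each hairpin with scramble, and #10 with #1, over both days with day as a term. The scripts were tested on simulated data. Alternatives were quantile normalization, median centring, a 60th percentile filter, averaging the probe sets of a gene, a replicate block and leaving out arrays.

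The members and gene lists were chosen with earlier results of these data known. The text names all 8 members. Of other complement genes it names those called, and per direction the 3 with the largest mean difference of 1 sign in every array pair used. It also names the genes with the highest Pearson r over the arrays, 5 for C3 and 3 for each other tested member. Symbols of open reading frames, antisense transcripts and uncharacterized loci were skipped there.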

Additional observations from a re-analysis of the deposited data

Results flagged for a closer look

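C3 lay on opposite sides of scramble with 2 of the hairpins. It was above scramble in both arrays of #3 and below it in both arrays of #1, so that the difference from scramble was 1.63 log2 higher in #3 than in #1. The difference between the hairpins was not tested. The values of #1 lay close to scramble, at -0.33 log2 at day 2 and -0.01 at day 5, and those of #3 at 0.23 and 2.69.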

How the results depend on the processing

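Of 523 values of single members under an alternative, 478 kept their direction and side of the threshold and 34 changed direction. The other 11 passed the threshold where the value reported did not. No member was called with all arrays, so no called value could be lost or change direction. Quantile normalization turned CFB at day 2 to -0.014 log2, CD59 in #1 to 0.043 and CFB in #10 to 0.0078. Median centring turned CFB at day 2 to -0.019, CFB in #10 to 0.029 and the CFP change between days to 0.053. The mean of all probe sets turned CD59 to 0.0020 in #1, 0.036 in #10 and 0.034 between #10 and #1, and the CD55 change between days to 0.086. Leaving out single arrays or replicates gave, at day 2, -0.081 to 0.123 for CFB, -0.280 to 0.00028 for C3 and -0.462 to 0.488 for CFP. At day 5 it gave -0.159 to 0.0228 for CFP, -0.00895 to 1.49 for CFD and -0.323 to 0.0618 for CFB. For the change of the knockdown value between days it gave -0.647 to 0.318 for CFP, -0.608 to 0.181 for CD55, -1.50 to 0.365 for CFD and -0.446 to 0.0683 for CFB. For day 5 against day 2 it gave -0.589 to 0.200 for CD55, -0.116 to 0.430 for CD46, -0.568 to 1.30 for CFD, -0.0282 to 0.432 for CD59 and -0.256 to 0.258 for CFB. It gave -0.530 to 0.253 for CFP in #3 and -0.000295 to 0.0784 for CFB in #10. The cause was not tested. The number of genes called in #3 was 4, and 0 with median centring, the mean of probe sets or the 60th percentile filter, and leaving out arrays gave 0 to 214 genes and 0 to 1 members. In #10 it was 258, then 82 with median centring and 131 with the 60th percentile filter, and leaving out arrays gave 0 to 963 genes and 0 to 2 members. Between #10 and #1 it was 42, then 0 with median centring, 19 with the mean of probe sets and 0 with the 60th percentile filter, and leaving out arrays gave 0 to 615 genes and 0 to 3 members. The highest counts are those without the array labelled #3 at day 2 and the counts of 0 those without the array labelled scramble at day 5. CFB was not tested under the 60th percentile filter or the mean of probe sets. With a replicate block no gene was called, and C3 stayed at 3.21 log2 for day 5 against day 2 (adjusted p = 0.999 in limma) and 2.21 at day 5 (adjusted p = 0.920 in limma). The same hairpin names its arrays at both days, but the labels tie them to no shared culture, and their deviations from the day means did not all go together, with correlations of 0.715 for #1, -0.228 for #3 and 0.432 for #10. Comparisons that need the array labelled scramble at day 5 could not be fitted without it.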
